A study of Mus musculus with 6 samples.

Results

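The small heat shock proteins are ATP-independent chaperones that hold unfolding proteins, and heart muscle is rich in them. The account covers 10 genes of this system in primary mouse cardiomyocytes, namely 7 small heat shock protein genes (Hspb1, Hspb2, Hspb3, Hspb6, Hspb7, Hspb8 and Cryab), the co-chaperone gene Bag3, and the stress-inducible Hsp70 genes Hspa1a and Hspa1b. They were chosen by symbol, as the entries of the deposited expression table whose Ensembl identifier carries one of these names in GENCODE M21, which gave 10 of 54532 genes. All 10 were high enough to be tested, among 13794 genes.

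RNA-seq was performed on cardiomyocytes cultured from the hearts of neonatal mice. According to the methods of the study, the mice were between 1 and 3 days old and carried a Rit1 locus engineered so that Cre recombinase turns on RIT1 M90I, a form found in Noonan syndrome of a GTPase related to RAS. On day 3 after isolation the cells received adenovirus encoding GFP alone (AdGFP, 3 samples, genotype given as Rit1 +/+) or GFP with Cre (AdCre, 3 samples, genotype given as Rit1 M90I/+), and RNA was taken on day 6 after infection. The comparison asks which transcripts differ once RIT1 M90I is expressed. Both groups carried adenovirus and GFP, and no sample received Cre without the engineered locus, so the variant and Cre itself cannot be told apart. Cardiomyocytes were enriched by pre-plating only, so other heart cells can be present.

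Levels are given as FPKM, the number of fragments per kilobase of exonic sequence corrected for library depth. Rit1 lay between 7.66 and 9.01 FPKM in AdGFP and between 8.90 and 9.58 FPKM in AdCre, a level that does not separate the variant from the wild-type transcript. The reads that the FPKM values stand for, as far as they could be recovered, totalled 23.6 to 24.6 M in AdGFP and 24.2 to 30.1 M in AdCre (M, megareads). The 14 cardiomyocyte markers were above 0 in all 6 samples (2.03 to 4943 FPKM), but their summed level lay between 5589 and 9650 FPKM in AdGFP and between 3158 and 4986 FPKM in AdCre. In bulk samples, fewer cells of a type and less RNA per cell cannot be told apart. Summed endothelial markers were higher in AdCre in each pair of equal replicate number (95.0, 115 and 147 FPKM in AdGFP 1 to 3 and 139, 155 and 206 FPKM in AdCre 1 to 3), with 9 of 10 markers higher and 4 called higher by limma with a term for replicate number. Macrophage markers were also higher in each pair (49.5, 207 and 272 FPKM against 87.8, 280 and 343 FPKM), with 7 of 7 tested markers higher and 2 called. Fibroblast markers were lower in each pair (2966, 4054 and 5627 FPKM against 2739, 3645 and 4172 FPKM), with 3 of 10 called lower and 1 called higher. The sums overlapped between the groups for these lists and for mural cells (851 to 1330 against 1012 to 1224 FPKM) and epicardial cells (142 to 243 against 204 to 262 FPKM). The part of these other cells in the results was not tested.

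Small heat shock proteins share an alpha-crystallin domain and assemble into oligomers that keep clients in a state from which they can be refolded or degraded. In muscle they protect the sarcomere, the desmin network and the Z-disc. BAG3 joins HSPB8 to HSP70 and passes damaged Z-disc proteins such as filamin to autophagy, a route called chaperone-assisted selective autophagy. Variants of CRYAB, BAG3 and HSPB8 cause muscle or heart muscle disease. Several of these genes respond to heat through the heat shock factor HSF1, which binds repeated GAA units in alternating orientation.

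The start regions of the genes are shown because the 10 genes share a pathway but not a promoter. RefSeq (GRCm38.p6) gave 9 regions for 8 of the 10 genes, each covering 250 bases before the start and 50 after it. The heat shock element was searched as a pair of units, GAANNTTC or TTCNNGAA, both of which read the same on either strand. A pair was found in 7 of the 9 regions and in 15.1% of all 32851 promoters of the same length. Counted from 1 at the first base after the start and from -1 before it, the pair began at 43 in Bag3 and at -104 in both Hspa1a and Hspa1b, and Hspb1 held it at -117 and at -97. No pair was found in the region of Hspb7. An array of 3 units (GAANNTTCNNGAA or TTCNNGAANNTTC), which contains the pair, was found in 0 of the 9 regions and in 0.603% of all promoters. The regions of Hspa1a and Hspa1b had 296 of 300 bases in common. Printed 5′ to 3′ on the strand of the gene, with the pair in capitals, are the regions of Bag3 (chr7:128523333-128523632, plus strand), Hspb7 (chr4:141420529-141420828, plus strand), Hspb1 (chr5:135887669-135887968, plus strand), Hspa1a (chr17:34972107-34972406, minus strand) and Hspa1b (chr17:34959189-34959488, minus strand).
Bag3: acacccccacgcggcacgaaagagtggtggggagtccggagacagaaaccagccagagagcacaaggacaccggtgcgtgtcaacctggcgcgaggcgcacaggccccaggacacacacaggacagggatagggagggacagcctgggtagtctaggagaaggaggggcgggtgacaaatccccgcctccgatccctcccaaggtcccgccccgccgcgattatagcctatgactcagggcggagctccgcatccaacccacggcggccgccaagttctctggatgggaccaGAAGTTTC
Hspb7: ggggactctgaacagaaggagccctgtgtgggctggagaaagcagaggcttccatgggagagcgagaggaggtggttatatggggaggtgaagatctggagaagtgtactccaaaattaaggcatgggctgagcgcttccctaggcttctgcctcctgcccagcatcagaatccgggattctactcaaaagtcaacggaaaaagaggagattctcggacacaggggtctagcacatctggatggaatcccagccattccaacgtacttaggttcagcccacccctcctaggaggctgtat
Hspb1: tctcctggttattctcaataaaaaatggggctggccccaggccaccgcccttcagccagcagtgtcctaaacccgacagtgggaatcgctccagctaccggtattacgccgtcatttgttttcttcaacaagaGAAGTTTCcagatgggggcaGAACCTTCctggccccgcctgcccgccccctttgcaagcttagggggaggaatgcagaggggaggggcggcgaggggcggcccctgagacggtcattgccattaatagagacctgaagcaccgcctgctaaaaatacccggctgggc
Hspa1a: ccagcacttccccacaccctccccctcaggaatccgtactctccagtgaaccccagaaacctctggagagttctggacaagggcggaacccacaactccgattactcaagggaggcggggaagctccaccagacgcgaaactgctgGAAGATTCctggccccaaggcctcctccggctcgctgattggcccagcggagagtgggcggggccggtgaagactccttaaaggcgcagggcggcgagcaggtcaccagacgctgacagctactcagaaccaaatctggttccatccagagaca
Hspa1b: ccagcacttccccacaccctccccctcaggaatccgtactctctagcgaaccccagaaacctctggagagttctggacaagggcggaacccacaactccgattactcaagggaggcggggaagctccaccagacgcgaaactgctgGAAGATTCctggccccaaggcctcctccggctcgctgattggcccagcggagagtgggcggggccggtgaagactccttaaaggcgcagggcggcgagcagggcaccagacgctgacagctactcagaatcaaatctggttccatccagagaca

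The genes lie on 6 chromosomes (GRCm38). Hspb1 (ENSMUSG00000004951, plus strand) lies at chr5:135887919-135889563 and Hspb8 (ENSMUSG00000041548, minus strand) at chr5:116408491-116422864. Cryab (ENSMUSG00000032060, plus strand, chr9:50751325-50756636) and Hspb2 (ENSMUSG00000038086, minus strand, chr9:50751078-50752354) overlap on opposite strands, over 17.0% of the exon bases of Cryab and 30.2% of those of Hspb2. Since the use of strand in counting is not stated, reads from the overlap cannot be assigned to either gene with certainty. Hspb6 (ENSMUSG00000036854, chr7:30552178-30555443) and Bag3 (ENSMUSG00000030847, chr7:128523616-128546981) are on the plus strand, as is Hspb7 (ENSMUSG00000006221, chr4:141420779-141425311). Hspb3 (ENSMUSG00000051456, chr13:113662896-113663676) is on the minus strand. Hspa1a (ENSMUSG00000091971, chr17:34969190-34972156) and Hspa1b (ENSMUSG00000090877, chr17:34956436-34959238) are neighbours on the minus strand, and 66.3% of the 50-base words of Hspa1a transcripts also occur in other genes, those of Hspa1b among them. The split of reads between these copies is therefore uncertain. Hspa1a also overlaps Gm20481 on the other strand over 19.0% of its exon bases, and Gm20481 was listed at 0 in all 6 samples. Of the 50-base words of Hspb1 transcripts, 50.1% also occur in other genes, mostly in the pseudogene Hsp25-ps1, which was listed at 0 to 0.963 FPKM.

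Bag3 was the one gene of the 10 whose AdCre samples all lay above its AdGFP samples, and Hspb7 was the one gene that limma called on log2 FPKM, as lower, and only when replicate numbers were fitted. AdCre minus AdGFP, as the difference of mean log2(FPKM + 0.1), was below 0 for 9 of the 10 genes, with a median of -0.37 against -0.002 over all 13794 genes. The count below 0 was 5 of 10 without AdGFP 1 (median -0.03) and 5 of 10 without AdCre 3 (median -0.18), so the direction of the group rests on these samples. Hspb3, at -0.02, turned above 0 when the values were rescaled to TPM. With limma and no term for replicate, 0 of the 10 genes passed an adjusted p of 0.05, against 1 of all genes (0.00725%, and 0% in the lower direction). At an unadjusted p under 0.05 the count was 1, Bag3, against 10.2% of all genes (4.71% higher and 5.45% lower). Voom on the recovered reads also called 0 of the 10.

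Replicates carry the numbers 1 to 3 in both groups, and samples with the same number deviated together, so the replicate number was also fitted as a block. With the block, 1 of the 10 genes passed, Hspb7, which was lower, against 6.15% of all genes (2.64% higher and 3.51% lower). The unadjusted count was 4 of 10 against 24.7%. With the block and voom on recovered reads, Hspb7, Hspb8 and Bag3 passed, 3 of 10 against 12.6% of 13121 genes. The groups did not overlap for 1 of the 10, Bag3, against 15.4% of all genes (7.36% higher and 8.02% lower). The counts for the 10 genes were not tested against these shares.

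**Figure D1:**
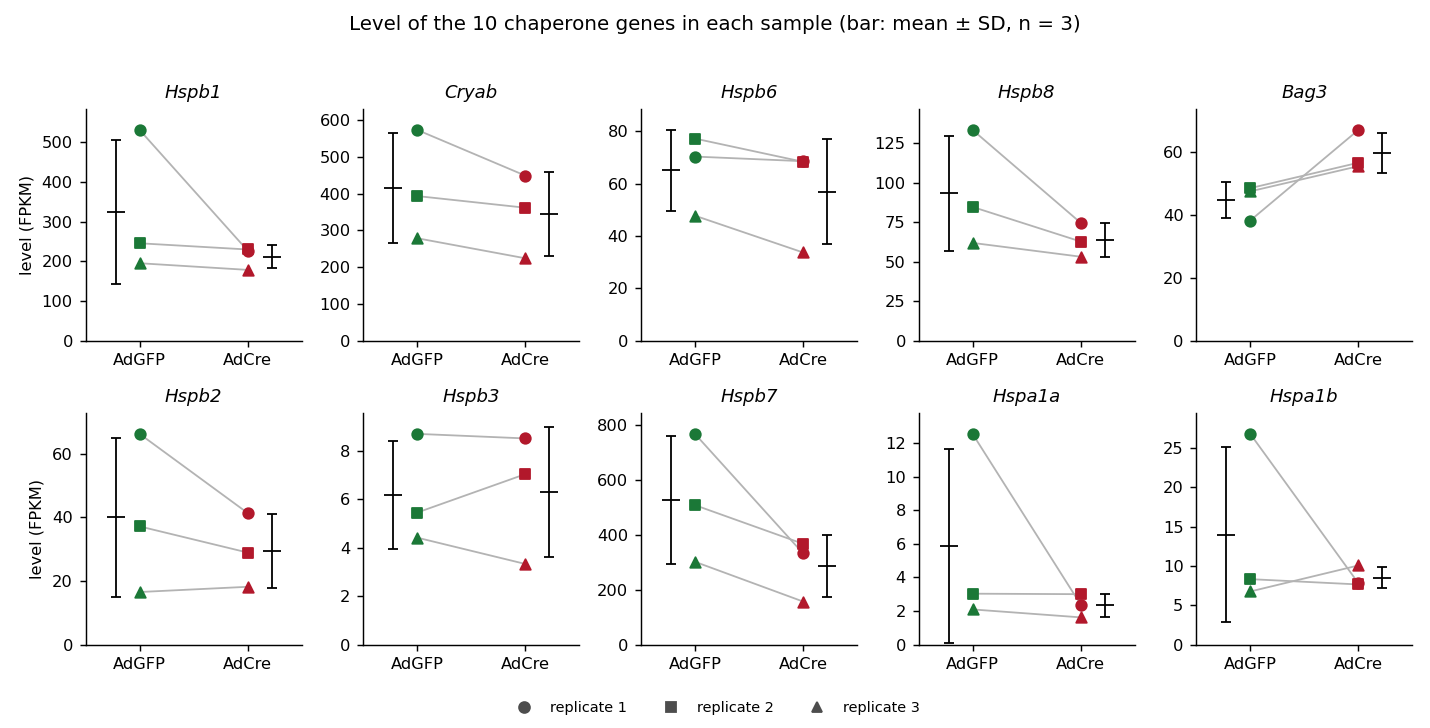
Level of each of the 10 genes (FPKM, linear axes from 0) in the 3 AdGFP samples (green) and the 3 AdCre samples (red), with lines joining samples of the same replicate number and bars for the mean ± SD (n = 3). AdGFP replicate 1 is the highest of all samples for 8 genes, and the groups are separate for Bag3 alone.

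Bag3, the hub of the HSPB8 and HSP70 complex, stood at 38.3, 48.6 and 47.6 FPKM in AdGFP 1 to 3 and at 67.1, 56.7 and 55.6 FPKM in AdCre 1 to 3. Each AdCre sample lay above each AdGFP sample. The group means were 44.8 ± 5.69 and 59.8 ± 6.38 FPKM (SD, n = 3), a difference of 0.42 ± 0.15 (SE) on the log2 scale or 1.34-fold. The adjusted p was 0.405 with limma, and the exact two-sided permutation test gave p = 0.1, the smallest that 3 samples against 3 allow. The difference was 0.81 in pair 1 and 0.22 in pairs 2 and 3. It was above 0 in all 3 pairs, as for 23.9% of all genes tested. With the block and voom on recovered reads, limma gave an adjusted p of 0.0287. Without AdGFP replicate 1, the lowest sample for Bag3, the difference was 0.31.

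HSPB8, the small heat shock protein bound by BAG3, was measured at 133, 84.6 and 61.8 FPKM in AdGFP and at 74.5, 62.7 and 53.1 FPKM in AdCre. The order of the replicates was the same in both groups, and the groups overlapped. The difference for Hspb8 was -0.50 ± 0.28 (SE, n = 3 per group, limma adjusted p = 0.632), and it was negative in all 3 pairs. With the block and voom the adjusted p was 0.0291. The difference was -0.20 without AdGFP 1 and -0.76 without AdGFP 3. The level of Hspb8 was therefore 3.48, 1.74 and 1.30 times that of Bag3 in AdGFP and 1.11, 1.11 and 0.955 times in AdCre. This ratio did not overlap between the groups (exact permutation p = 0.1, two-sided), and it was chosen after both levels were seen.

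Hspb7, which is made almost only in heart and skeletal muscle and binds filamin C, had the highest mean level of the 10 genes over all 6 samples. It stood at 769, 509 and 302 FPKM in AdGFP and at 333, 368 and 157 FPKM in AdCre. AdCre was lower in each pair, by -1.21, -0.47 and -0.94 on the log2 scale, though the groups overlapped because AdGFP 3 lay below AdCre 1 and 2. Of the 10 genes, 6 were negative in all 3 pairs (Hspb1, Hspb6, Hspb7, Hspb8, Cryab and Hspa1a), against 24.5% of all genes. The Hspb7 difference was -0.87, or 0.546-fold, with an SE of 0.44 and adjusted p = 0.569 without the block. With the block the SE was 0.15 and limma gave adjusted p = 0.0339. Leaving out pair 3 gave an adjusted p of 0.145 with the block, and leaving out pair 1 or pair 2 gave 0.0344 and 0.0486. Among single samples, the Hspb7 difference was -0.49 without AdCre 3 and -0.55 without AdGFP 1. The summed cardiomyocyte markers also lay lower in AdCre, and the mean of their log2 levels differed by -0.74. The part of that difference in the Hspb7 value was not tested.

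**Figure D2:**
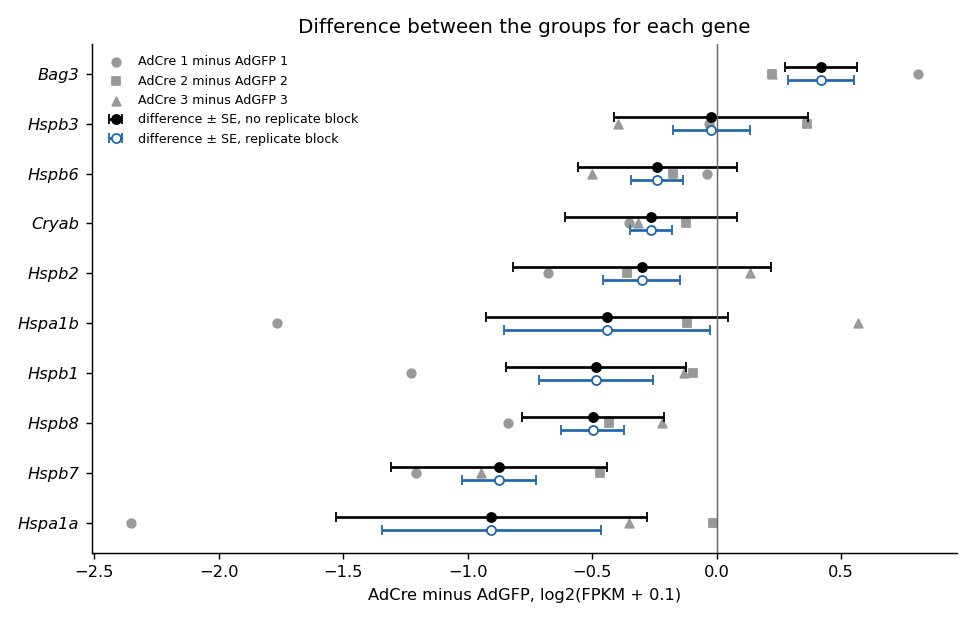
Difference between AdCre and AdGFP for each of the 10 genes on the log2(FPKM + 0.1) scale, with grey symbols for the 3 pairs of equal replicate number, black points for the difference ± SE without a replicate block and open blue points with it. Bag3 lies right of 0, Hspb3 close to 0 and the other 8 genes left of it, and pair 1 lies far from pairs 2 and 3 for Hspa1a, Hspa1b and Hspb1.

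Cryab, which encodes alpha-B crystallin, the partner of desmin and titin, was at 574, 394 and 279 FPKM in AdGFP and at 449, 362 and 224 FPKM in AdCre. The samples of each number kept the same order in both groups and AdCre was lower in each pair, but by small steps of -0.35, -0.12 and -0.31. The difference was -0.26 ± 0.34 (SE, limma adjusted p = 0.875), and it was 0.00 without AdGFP replicate 1. Its neighbour Hspb2, a muscle protein that binds the myotonic dystrophy kinase, had 66.2, 37.1 and 16.5 FPKM in AdGFP and 41.3, 28.9 and 18.1 FPKM in AdCre. Hspb2 was therefore higher in AdCre in pair 3 alone, and its difference was -0.30 ± 0.52 (SE, limma adjusted p = 0.912). It was 0.17 without AdGFP 1, 0.01 without AdCre 3 and -0.83 without AdGFP 3. Hspb2 stood at 5.92% to 11.5% of the Cryab level in AdGFP and at 7.98% to 9.19% in AdCre.

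Hspb1, a chaperone of actin and intermediate filaments that stress kinases phosphorylate, was at 532, 246 and 195 FPKM in AdGFP and at 227, 230 and 178 FPKM in AdCre. AdGFP 1 held more than any other sample, and the remaining 5 lay close together. The Hspb1 difference was -0.48 ± 0.36 (SE, limma adjusted p = 0.734) with all samples, -0.06 without AdGFP 1 and -0.78 without AdGFP 3. Hspb6, known for its phosphorylation by cyclic nucleotide-dependent kinases, was at 70.3, 77.2 and 47.7 FPKM in AdGFP and at 68.5, 68.3 and 33.7 FPKM in AdCre. Both groups had their lowest Hspb6 level in replicate 3, and the difference was -0.24 ± 0.32 (SE, limma adjusted p = 0.88). It was 0.10 without AdCre 3 and -0.45 without AdGFP 3. Hspb3, which forms complexes with HSPB2 in muscle, was the lowest of the 7 small heat shock protein genes, at 8.70, 5.45 and 4.42 FPKM in AdGFP and 8.52, 7.04 and 3.33 FPKM in AdCre. These Hspb3 levels rested on 72 to 213 recovered reads per sample. The difference was -0.02 ± 0.39 (SE, limma adjusted p = 0.995), with 0.36 in pair 2 and -0.40 in pair 3. Without AdCre 3 it was 0.38, and without AdGFP 1 it was 0.25.

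HSPA1A and HSPA1B are nearly identical HSP70 proteins, which refold clients held by small heat shock proteins and are among the genes most induced by heat. Hspa1a was at 12.6, 3.03 and 2.09 FPKM in AdGFP and at 2.38, 3.00 and 1.62 FPKM in AdCre. Hspa1b was at 26.8, 8.31 and 6.74 FPKM in AdGFP and at 7.80, 7.64 and 10.1 FPKM in AdCre. In both genes AdGFP 1 stood apart and the other 5 samples were similar. Because the copies share sequence they were also summed, which gave 2777, 819 and 619 recovered reads in AdGFP and 926, 783 and 914 in AdCre. The summed level differed by -0.54 on the log2 scale with all samples and by 0.11 without AdGFP 1. Limma gave adjusted p = 0.704 for Hspa1a (-0.91 ± 0.63, SE) and 0.84 for Hspa1b (-0.44 ± 0.48, SE). The ratio of Hspa1b to Hspa1a lay between 2.13 and 3.28 in 5 samples and was 6.22 in AdCre 3.

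AdGFP replicate 1 was the highest of all 6 samples for 8 of the 10 genes, against 22.9% of all genes, and the highest of the 3 AdGFP samples for the same 8, against 41.3%. Relative to the mean of AdGFP 2 and 3 it held 4.90 times as much Hspa1a, 3.56 times as much Hspa1b, 2.47 times as much Hspb2 and 2.41 times as much Hspb1. The ratio for Hspb7, Hspb8, Hspb3 and Cryab was between 1.71 and 1.90, for Hspb6 1.13 and for Bag3 0.796. A list of 14 other heat-inducible genes had 7 with their highest level in the same sample, and ratios of 0.993 to 1.96 with a median of 1.48. The mean log2 level of the cardiomyocyte markers was also highest in AdGFP 1 (7.81, against 7.56 and 7.13 in AdGFP 2 and 3). Single markers differed, with Tnnc1 at 377, 178 and 113 FPKM and Ryr2 at 20.2, 32.5 and 26.0 FPKM in AdGFP 1 to 3. At the other end, AdCre 3 was the lowest of all samples for 7 of the 10 genes, against 17.5% of all genes. The FPKM sum over all genes was likewise highest in AdGFP 1 (339821) and lowest in AdCre 3 (270136). After rescaling to TPM, the median difference of the 10 genes was -0.28. Without AdGFP 1 the median difference of the 10 genes was -0.03, in place of -0.37, and Hspb7, at -0.55, was the furthest below 0. What made AdGFP 1 differ was not tested.

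By mean level over the 6 samples, Hspb7 came first (406 FPKM), then Cryab (380 FPKM), Hspb1 (268 FPKM), Hspb8 (78.3 FPKM), Hspb6 (61.0 FPKM), Bag3 (52.3 FPKM), Hspb2 (34.7 FPKM), Hspa1b (11.2 FPKM), Hspb3 (6.24 FPKM) and Hspa1a (4.11 FPKM). FPKM is a level per length of exon, but sequence shared with other genes (Hspb1, Hspa1a and Hspa1b) and the overlap of Cryab and Hspb2 leave these levels and their order uncertain. The order of the first pair depended on the group. In AdGFP the mean of Hspb7 was above that of Cryab (527 and 415 FPKM), and in AdCre Cryab was above Hspb7 (345 and 286 FPKM). Hspb7 lay above Cryab in 4 of 6 samples. The other neighbours kept their order in 5 or all of the 6 samples. By group mean, Bag3 also lay above Hspb6 in AdCre (59.8 and 56.8 FPKM) and below it in AdGFP (44.8 and 65.1 FPKM). Hspb1, Hspb7 and Cryab made up 83.8% to 87.1% of the summed level of the 7 small heat shock proteins. That sum was 2153, 1352 and 907 FPKM in AdGFP and 1202, 1126 and 668 FPKM in AdCre, or 0.634%, 0.452% and 0.326% of all FPKM in AdGFP and 0.393%, 0.397% and 0.247% in AdCre.

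Since cardiomyocyte markers were lower in AdCre, each gene was also set against the mean log2 level of the 14 markers in the same sample. The markers were chosen with their lower level known. Subtracting them moves every gene upward in AdCre, so that the median over all genes tested was 0.74 on this scale, and 39.1% of all genes were higher in AdCre without overlap (0.268% lower). Their mean log2 level was 7.81, 7.56 and 7.13 in AdGFP and 6.85, 7.12 and 6.31 in AdCre, and with the block 7 of the 14 were called lower. Relative to the markers, Bag3 was at -2.55, -1.96 and -1.55 in AdGFP and at -0.78, -1.29 and -0.51 in AdCre, a difference of 1.16 with no overlap. Cryab, relative to the markers, was at 1.35, 1.06 and 0.99 in AdGFP and at 1.96, 1.38 and 1.50 in AdCre, a difference of 0.48 with no overlap. Hspb3 (0.72) and Hspb6 (0.50) also had a higher relative level in AdCre than in AdGFP without overlap, though both lay below the marker mean in all samples, and the exact permutation p was 0.1, the smallest possible, for each of these 4 among 10 comparisons. The count of 4 of 10 is near the share of all genes, and of the 10 genes only Bag3 lay above the median of all genes on this scale. About 13270 of the 13794 genes tested were above 0 on this scale, so a sign kept above 0 sets no gene apart. These 4 relative differences kept their sign when any sample was left out, with 0.90 to 1.40 for Bag3, 0.50 to 0.89 for Hspb3, 0.38 to 0.62 for Hspb6 and 0.31 to 0.60 for Cryab. Of the other genes, Hspa1a ran from -0.48 without AdGFP 3 to 0.44 without AdGFP 1, Hspa1b from -0.05 without AdCre 3 to 0.76 without AdGFP 1 and Hspb7 from -0.29 without AdGFP 3 to 0.04 without AdGFP 1. Hspb2 ran from 0.10 without AdGFP 3 to 0.76 without AdGFP 1, Hspb1 from 0.097 without AdGFP 2 to 0.53 without AdGFP 1 and Hspb8 from 0.14 without AdCre 3 to 0.43 without AdCre 2. Hspb7 was lower by nearly the same amount as the markers, with a relative difference of -0.13 (exact permutation p = 0.6, n = 3 per group). Hspb2 (0.44), Hspa1b (0.30), Hspb1 (0.26), Hspb8 (0.25) and Hspa1a (-0.16) overlapped between the groups on this scale.

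**Figure D3:**
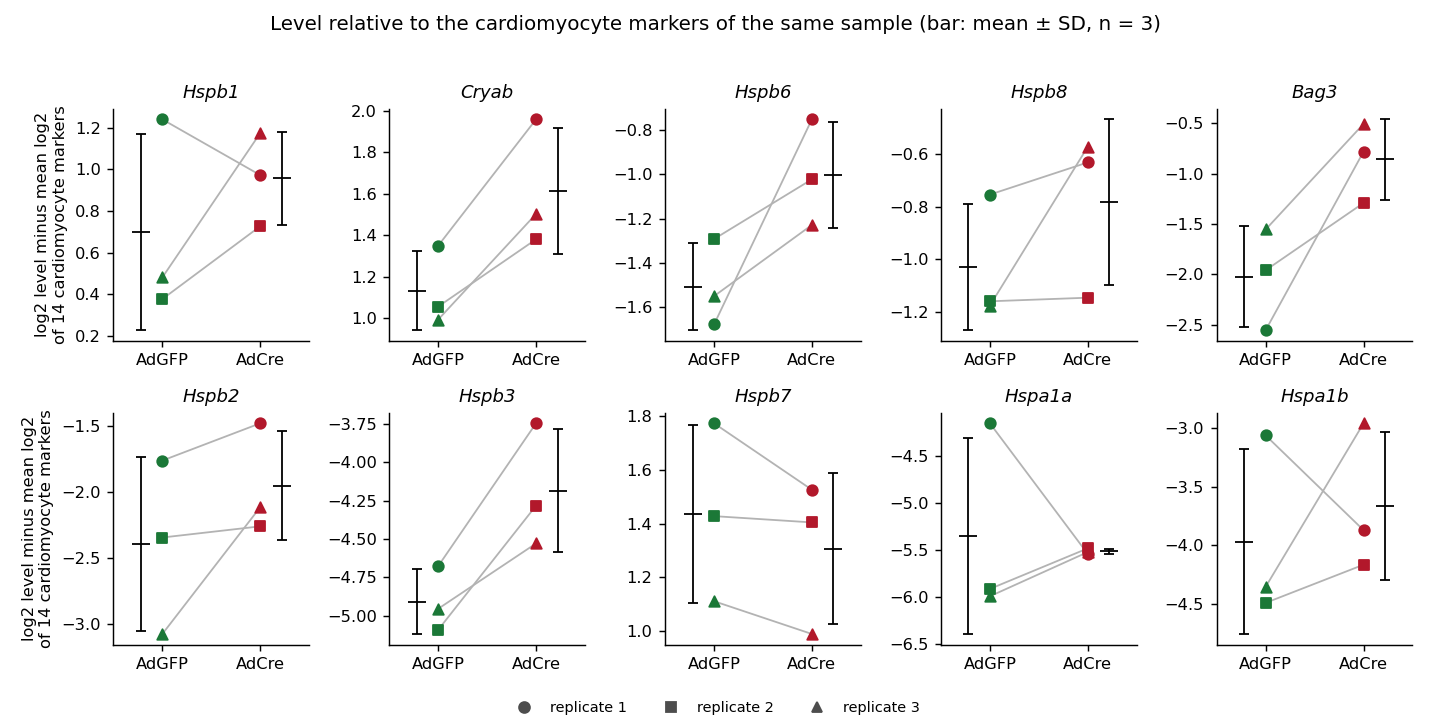
Log2 level of each gene minus the mean log2 level of 14 cardiomyocyte markers in the same sample, for AdGFP (green) and AdCre (red), with lines joining equal replicate numbers and bars for the mean ± SD (n = 3). The axes differ between panels and do not start at 0; the groups are separate for Bag3, Hspb3, Hspb6 and Cryab.

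The single markers spread widely, from Pln (-1.30) and Actc1 (-1.18) to Myl7 (-0.22) and Tnnc1 (-0.16). The difference of Bag3 and that of Hspb3 lay above those of all 14 markers, and those of Hspb2, Hspb6 and Cryab lay above 11 of them. Hspb1, Hspb8 and Hspa1b lay above 10 of the 14, and Hspb7 and Hspa1a above 6. All 14 markers were lower in AdCre, so the relative values depend on which markers are used.

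In the rest of the chaperone network, Dnaja4 (-0.53), Hsf2 (-0.51), Lonp1 (-0.46), Unc45b (-0.43) and Synpo2 (-0.35) differed most. Over 10 further lists holding 67 genes, 63 were tested, 36 were higher and 27 lower in AdCre, with a median of 0.07 and a range of -0.53 to 0.29. Of the 63, 58 lay within 0.3 of 0 on the log2 scale, a share that was not counted over all genes. Limma without the block called 0 of them (2 at an unadjusted p under 0.05, against 10.2% of all genes), and with the block 1 was called, against 6.15% of all genes (15 at an unadjusted p, against 24.7%). With the block and voom on recovered reads 6 were called, among them 5 named here (Unc45b, Hsf2, Map1lc3b, Cct6a and Lonp1), against 12.6% of 13121 genes. Voom covered only genes whose reads could be recovered, so fewer than 63 of the list genes were fitted there. The gene called with the block on FPKM was Unc45b, the muscle myosin chaperone that works with HSP90. It was at 12.4, 13.1 and 12.2 FPKM in AdGFP and at 9.87, 9.35 and 8.66 FPKM in AdCre, without overlap. The Unc45b difference was -0.43 ± 0.11 (SE, limma adjusted p = 0.294), and the adjusted p was 0.0443 with the block. It was 0.0899 with the block after rescaling to TPM, and 0.177 and 0.179 with the block when pair 2 or pair 3 was left out.

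Among the regulators, Hsf1, the main heat shock factor, had a mean of 3.56 ± 0.713 FPKM in AdGFP and of 4.30 ± 0.66 FPKM in AdCre (SD, n = 3). Hsf2, its developmental relative, was at 3.95 ± 0.63 and 2.75 ± 0.402 FPKM without overlap, a difference of -0.51 with limma adjusted p = 0.417 (0.0206 with the block and voom). Hsf4 (0.16) and Hsbp1 (0.11), whose product binds and restrains HSF1, completed this list of 4, which had a median of 0.13. Dnajb1, the heat-inducible J protein partner of HSP70, was at 16.2 ± 1.48 and 19.1 ± 0.99 FPKM without overlap (0.24, adjusted p = 0.556). Dnaja4, another J protein, was at 8.68 ± 3.0 and 5.77 ± 0.577 FPKM (-0.53, adjusted p = 0.529, and -0.28 without AdGFP 1), and 7 of the 8 J proteins tested were below 0. Among the HSP70 and HSP110 genes other than Hspa1a and Hspa1b, 6 of 9 were higher, with a median of 0.12. Hspa4l was at 6.54 ± 0.918 and 5.45 ± 0.79 FPKM and Hspa2 at 7.30 ± 1.29 and 6.08 ± 0.531 FPKM. For both, AdCre was lower by less than 0.3 on the log2 scale.

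Genes listed with BAG3 for selective autophagy or the Z-disc were split, with 5 of 9 higher and a median of 0.05. Map1lc3b, which encodes the autophagosome protein LC3B, was at 20.6 ± 1.61 and 25.3 ± 2.47 FPKM without overlap (0.29, adjusted p = 0.496, and 0.0469 with the block and voom). Synpo2, the Z-disc protein that binds BAG3 in selective autophagy, was at 8.73 ± 1.12 and 6.84 ± 1.03 FPKM (-0.35, adjusted p = 0.519). Among the other BAG genes, Bag1 was at 115 ± 19.6 and 132 ± 23.5 FPKM and Bag4 at 1.01 ± 0.138 and 1.26 ± 0.203 FPKM, and 2 of the 5 were higher. The list of HSP90 and its co-chaperones had 9 of 11 higher with a median of 0.10. Of the 8 CCT chaperonin subunits, which fold actin and tubulin, 6 were higher with a median of 0.11, among them Cct6a (0.23, adjusted p = 0.817, and 0.0445 with the block and voom) and Cct2 (0.13). The mitochondrial chaperones and proteases had 3 of 7 higher, with the protease Lonp1 at -0.46 (adjusted p = 0.704, and 0.0284 with the block and voom, and -0.20 without AdGFP 1) and Clpp at 20.2 ± 3.85 and 23.3 ± 3.21 FPKM. Of the 14 heat-inducible genes, 9 were higher, with a median of 0.08. Hspb11 was the one gene tested among 4 further small heat shock protein genes, at 3.55 ± 0.337 and 3.51 ± 1.10 FPKM. Leaving out 1 sample also moved Hsf1, Hspa2, Hspa4l, Bag1, Bag4, Cct2, Cct6a and Clpp by more than 1.5 times without a change of sign, and turned the sign of Hspb11.

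**Figure D4:**
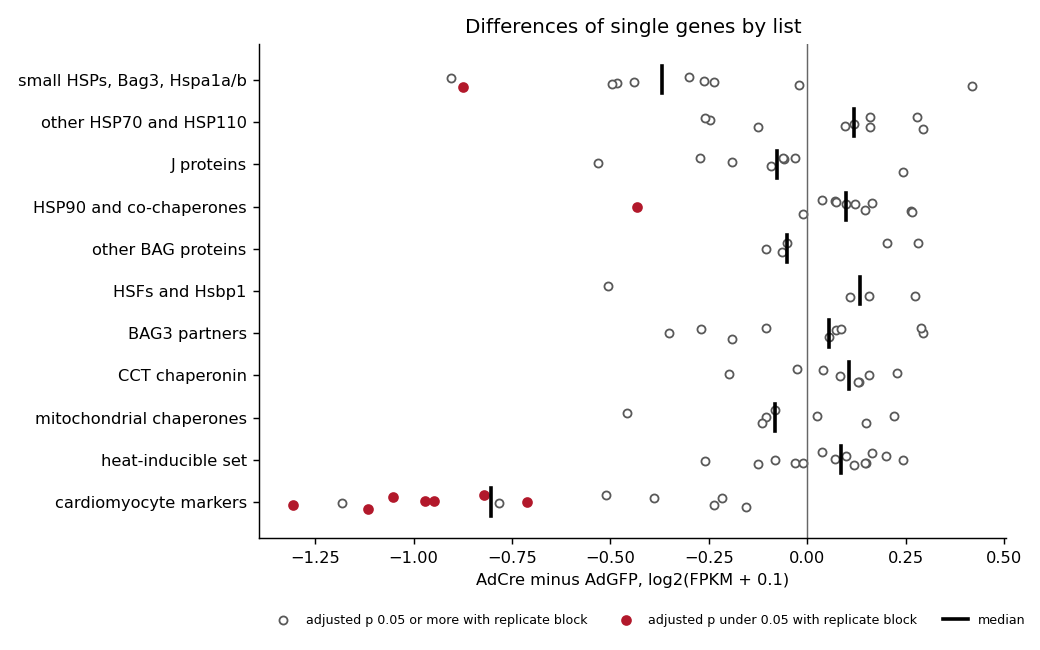
Difference between AdCre and AdGFP on the log2(FPKM + 0.1) scale for single genes of the 10 members, 9 chaperone lists and the cardiomyocyte markers, with a bar at the median of each list. Filled red points have an adjusted p under 0.05 with the replicate block (Hspb7, Unc45b and 7 markers), and the chaperone lists have medians between -0.08 and 0.13.

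Among 7401 other genes whose mean reached 5 FPKM, the closest to Cryab in pattern over the 6 samples were Gpc1, Adamtsl5 and Atp5g1, with mean absolute differences of 0.0558, 0.0714 and 0.0767 between the centred log2 levels. Gpc1, a heparan sulfate proteoglycan of the cell surface, ran from 82.4, 62.4 and 37.1 FPKM in AdGFP to 65.8, 53.7 and 33.6 FPKM in AdCre. The closest to Bag3 were Clk2, Spred2 and Adcy7, with 0.0513, 0.0529 and 0.0547. Spred2, an inhibitor of RAS signaling to ERK, was at 8.45, 9.46 and 9.45 FPKM in AdGFP and at 13.3, 11.4 and 11.6 FPKM in AdCre. Clk2, Spred2 and Adcy7 all had their lowest level in AdGFP 1 and their highest in AdCre 1, as Bag3 did. This follows from choosing them by pattern. The samples share libraries and scaling, so the likeness is a description.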

How the data were processed

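The deposited table holds FPKM values that the authors made for each of the 6 samples, without pooling. The submitters' processing notes list fastp, STAR 2.5, HTSeq 0.6.1 and build mm10, while the annotation release and the use of strand are not given in the sources used here. Of 54532 Ensembl identifiers, 54495 matched GENCODE M21. FPKM times exon length was a whole number of reads, within 0.02 read in every sample, for 96.8% of 28433 genes, and depths refer to those genes.

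Genes whose mean reached 0.5 FPKM were fitted as log2(FPKM + 0.1) in limma 3.58.1 (R 4.3.3, lmFit and eBayes with trend), with Benjamini-Hochberg adjustment of p over all 13794 genes. Fold changes on this scale understate those of low genes. Deviations from the group means correlated at 0.568, 0.268 and 0.506 between samples numbered 1, 2 and 3, and at -0.497 to 0.0364 otherwise. The numbers were thus taken to pair the samples on the values alone. Values with the block stand beside a result only if they alter its call. The labels call the samples biological replicates without saying what a number marks, and p-values measure the spread between these samples.

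All 10 members were named. From each list, genes called by limma on FPKM, with or without the block, were named, or else the 2 with the smallest p. For Cryab and Bag3 the 3 genes of closest pattern were named. Hsf4, Hsbp1 and single cardiomyocyte markers were named after their values were seen. Members and lists were chosen with earlier results of these data known. The fit was tested on simulated data. In all, 22 alternatives were run. Values relative to the markers under these alternatives, and the summed Hspa1a and Hspa1b level without AdGFP 1, were added after the data were seen. Python 3.11.15, numpy 2.4.6, pandas 2.3.3 and matplotlib 3.10.9 were used.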

Additional observations from a re-analysis of the deposited data

How the results depend on the processing

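The replicate block moved the count of called genes from 1 to 848, and it called 1 of the 10 genes and 1 chaperone list gene where the fit without it called 0 of each. With the block and TPM the counts were 875 genes and 1 of the 10, and with the block and voom on recovered reads 1655 genes, 3 of the 10 and 6 list genes. Leaving out 1 sample gave 0 to 2 called genes. Leaving out 1 pair with the block gave 772, 149 and 1 called genes for pairs 1, 2 and 3, with 0 to 1 of the 10 and 0 to 1 list genes. The block called Hspb7 and Unc45b and, by FPKM, no other gene named from the chaperone lists. Without the block, a pseudocount of 1 gave 3 called genes, no trend gave 4, and no filter and voom each gave 0.

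Of the 10 genes, Hspb1, Hspb7, Hspb8, Hspa1a and Bag3 kept their sign under all 22 alternatives, Bag3 between 0.22 and 0.52 and Hspb7 between -1.22 and -0.49. Hspb3 turned to 0.066 with TPM, with and without the block, to 0.053 with voom and to 0.077 with voom and the block, and lay between -0.29 and 0.38 when samples or pairs were left out. Leaving out samples or pairs also turned Hspb2 (-0.83 to 0.17), Cryab (-0.52 to 0.019), Hspa1b (-0.82 to 0.17 without a sample, -0.94 to 0.22 without a pair) and Hspb6 (-0.45 to 0.10), in each case with AdGFP 1 or AdCre 3 left out, or pair 1. Hspb11 turned to 0.029 with TPM, with and without the block, and to 0.026 with voom and the block, and lay between -0.28 and 0.16 without a sample and between -0.22 and 0.090 without a pair. The causes were not tested.

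The fewest recovered reads in a sample were 72 for Hspb3 and 133 for Hspa1a. Each group holds 3 samples, so the exact test cannot fall below 0.1.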
